A study of Arabidopsis thaliana with 8 samples.

Results

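The transcripts of 4 nuclear genes for the plastid gene expression machinery were followed on arrays of *Arabidopsis thaliana*: AT3G54210, taken as ribosomal protein L17, and AT4G01310, taken as L5, both of the large subunit, AT3G13120, taken as S10 of the small subunit, and AT1G01080, an RNA-binding protein with RRM domains (RNA recognition motifs). They were chosen by locus, with earlier results of these data known, so their p-values are not those of an independent choice. A probe was a member where the platform annotation names exactly one gene and that gene is one of the 4. Each locus had 1 such probe, so the members are 4 of 3439 probes, and 4 of the 692 probes that name a single gene. The arrays carried total RNA of the *atpd* mutant, which per the labels lacks the ATP synthase delta subunit (4 arrays), and of wild type (WT, 4 arrays), both of ecotype Wassilevskija and both grown on MS (Murashige and Skoog) medium. Age, tissue, the mutant allele and the number of independent plants or lines are not given in the labels, so the p-values rest on array-to-array spread, part or all of which may be technical. The reference gene table carries only locus tags as symbols for the 4 genes, and the protein names used here come from general knowledge of these loci.

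Plastids keep a bacterial-type ribosome whose proteins are encoded partly in the plastid and partly in the nucleus, and the nuclear ones are made in the cytosol and imported. This ribosome makes the plastid-encoded core subunits of the photosystems, of the cytochrome b6f complex and of the ATP synthase itself. RRM proteins of the chloroplast bind plastid RNAs and are known to take part in their stability, splicing and editing. The delta subunit of the chloroplast ATP synthase joins the catalytic head of that enzyme to its membrane part.

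Each array gave an intensity per probe on a linear scale of unknown units that ended at 100, and 395 to 430 probes per array were at 0. The genotypes differed in the whole distribution: the median of the values above 0 was 0.613 to 0.705 on the *atpd* arrays, against 0.279 to 0.303 on the WT arrays. Arrays 1 and 2 of each genotype resembled each other, as did arrays 3 and 4, and the labels do not say why. The correlation within these array pairs was estimated at 0.69. Unless array pairs are named, the p-values and intervals below take the 4 arrays of a genotype as independent. They may therefore be too small and too narrow. Because the distributions differed, log2 intensities were quantile-normalised, which gives all arrays the same distribution, and tested with limma over all 2921 probes that had at least 3 values above 0 in each genotype. Percentiles give the place of a probe among the probes above 0 on its own array and do not depend on any scaling that keeps the order. Probes differ in brightness for reasons other than RNA amount, so levels are compared between genotypes and not between genes. In these bulk samples, fewer plastid-rich cells and less RNA per cell cannot be told apart.

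All 4 members passed the test at an adjusted p under 0.05, as did 51.8% of all tested probes. S10, L5 and the RRM protein rose in *atpd*, where 21.4% of tested probes rose, and L17 fell, where 30.4% fell. The changes after quantile normalisation were 1.58 on the log2 scale for S10, 1.09 for the RRM protein and 0.60 for L5, and L17 fell by 0.81. The median change of all tested probes on that scale was -0.090. With so much of the array called, passing the test is not particular to these genes. When each array pair was averaged only the RRM protein passed, and 686 probes were called, against 1513 without averaging. With the arrays paired by replicate number S10 did not pass (limma adjusted p = 0.0547). After quantile normalisation the 2 members of the large subunit moved in opposite directions. As deposited L5 rose by 1.77 (limma adjusted p = 1.83e-05), while L17 was at -0.11 and did not pass (limma adjusted p = 0.400). The fall of L17 is thus relative to the other probes.

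L17 of the large subunit lies, in the bacterial ribosome, near the exit of the tunnel through which the new protein leaves. AT3G54210 had deposited intensities of 1.09, 1.11, 1.09 and 1.09 on *atpd* replicates 1 to 4, against 1.09, 1.11, 1.30 and 1.24 on WT replicates 1 to 4. The 2 genotypes overlapped on this scale, with WT replicates 3 and 4 above all the others. As a mean the intensity was 1.10 ± 0.00651 in *atpd* and 1.19 ± 0.101 in WT (SD, n = 4 each), and the difference of the deposited log2 values was -0.11 (limma adjusted p = 0.400). Most other probes were brighter on the *atpd* arrays, and the place of L17 among them was therefore lower there.

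The percentile of AT3G54210 was 78.5, 79.2, 77.4 and 76.8 on *atpd* replicates 1 to 4, against 91.5, 91.4, 91.5 and 91.0 on WT replicates 1 to 4. No *atpd* array reached any WT array, a pattern in which 30.3% of the 2848 probes above 0 on all arrays also lay lower in *atpd*. The mean percentile was lower by 13.4 points in *atpd* (exact permutation test, two-sided, p = 0.0286, the smallest that 4 against 4 arrays can give). After quantile normalisation L17 fell by 0.81 (SE 0.12, limma adjusted p = 0.000492), 1.75-fold lower in *atpd*. Its residual SD of 0.0372 on the log2 scale was the lowest of all 2921 tested probes, whose median was 0.322. The call was lost with the values as deposited and when each array pair was averaged (adjusted p = 0.0895).

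**Figure D1:**
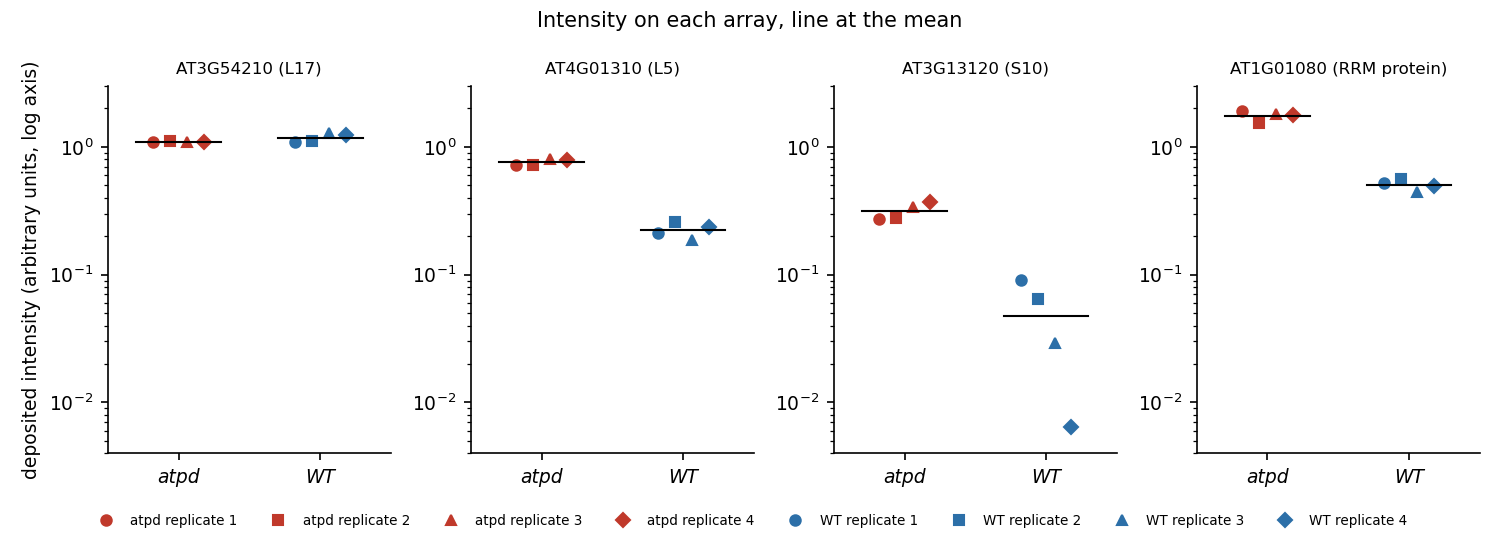
Deposited intensity (arbitrary units, log axis) of the 4 members on each *atpd* array (left of each panel) and each WT array (right), with a line at the mean of 4 arrays. AT3G54210 overlaps between the genotypes, while the other members are higher on every *atpd* array, and AT3G13120 spreads from 0.00640 to 0.0910 in WT.

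L5 binds the small RNA of the large subunit and sits in its central protuberance. AT4G01310 had intensities of 0.719, 0.727, 0.808 and 0.788 on *atpd* replicates 1 to 4, against 0.211, 0.260, 0.188 and 0.238 on WT replicates 1 to 4. Every *atpd* array was above every WT array, as for 59.4% of the 2848 probes on this deposited scale. The means were 0.760 ± 0.0440 in *atpd* and 0.224 ± 0.0310 in WT (SD, n = 4 each). The deposited log2 difference of 1.77 (limma adjusted p = 1.83e-05) stood above the median of 0.996 of all tested probes on that scale.

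Percentiles of AT4G01310 were 58.9, 59.9, 59.8 and 57.5 on *atpd* replicates 1 to 4, against 35.6, 46.8, 30.8 and 39.8 on WT replicates 1 to 4. It lay in the middle of the array in *atpd* and below the middle in WT, with no overlap, as did 20.9% of the 2848 probes in this direction. The mean percentile was higher by 20.8 points in *atpd* (exact permutation test, two-sided, p = 0.0286). After quantile normalisation L5 rose by 0.60 (SE 0.14, limma adjusted p = 0.00712), 1.52-fold. The WT arrays varied more than the *atpd* arrays, with SDs of 1.13 percentile points in *atpd* and 6.82 in WT. A random block for the array pairs gave an adjusted p of 0.0967, and averaging each pair gave 0.175.

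S10 belongs to the head of the small subunit, and in Escherichia coli the same protein also acts in transcription antitermination. AT3G13120 was the dimmest member, with intensities of 0.275, 0.276, 0.338 and 0.372 on *atpd* replicates 1 to 4, against 0.0910, 0.0650, 0.0291 and 0.00640 on WT replicates 1 to 4. All *atpd* arrays were above all WT arrays, as for 59.4% of the 2848 probes, and the WT values differed among themselves far more than the *atpd* values. The coefficient of variation was 15.2% in *atpd* and 78.4% in WT.

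On WT replicate 4, AT3G13120 lay at percentile 0.698, close to the bottom of the values above 0, and the other WT arrays had it at 11.02, 7.39 and 3.55. The *atpd* arrays had it at 16.6, 16.7, 16.96 and 19.7, so its probe was below percentile 20 on every array. The genotypes did not overlap, as for 20.9% of the 2848 probes in this direction. The mean percentile was higher by 11.8 points in *atpd* (exact permutation test, two-sided, p = 0.0286). After quantile normalisation S10 rose by 1.58 (SE 0.58, limma adjusted p = 0.0477), with a 95% confidence interval of 0.26 to 2.90. On the log2(value + 0.1) scale, which weighs values near 0 less, the change was 0.66 (limma adjusted p = 0.0196), below the 0.99 of the RRM protein on that scale. The residual SD of 0.967 on the log2 scale was above that of 95.9% of tested probes. The change was 0.94 without WT replicate 4 and 1.97 without WT replicate 1, and the adjusted p was 0.0547 with a replicate block and 0.224 when array pairs formed a random block. With the array set (1 and 2, or 3 and 4) as the block instead, it was 0.0321. Leaving out WT replicate 3 ended the call (adjusted p = 0.0857), as did leaving out any one *atpd* array (0.0841 to 0.0943). Arrays 1 and 2 alone gave a change of 0.57 (adjusted p = 0.0566), and arrays 3 and 4 alone gave 2.59 (adjusted p = 0.0365).

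**Figure D2:**
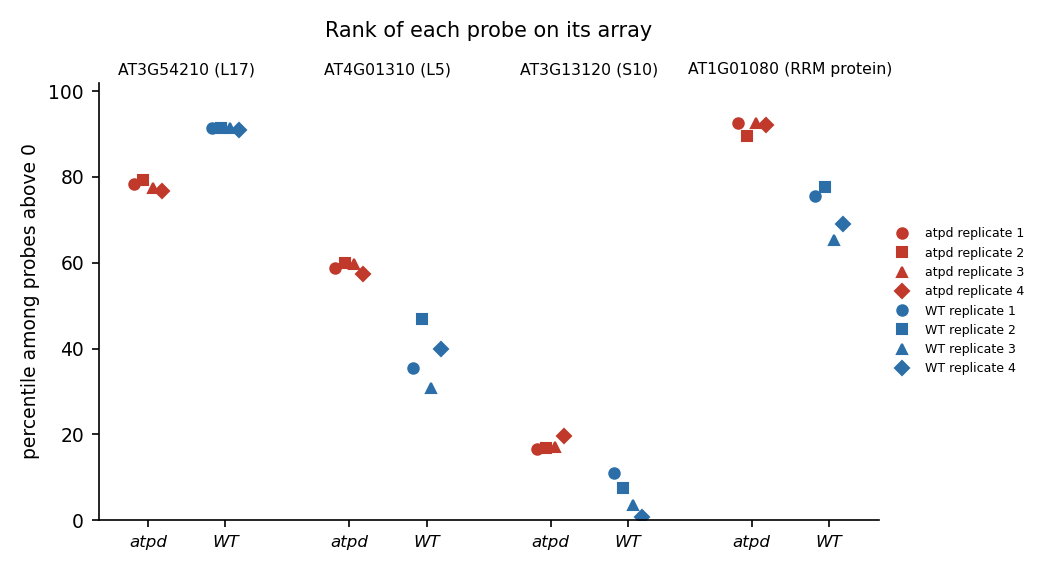
Percentile of each member among the probes above 0 on the same array, for the *atpd* arrays (left of each pair) and the WT arrays (right). AT3G54210 lies at 76.8 to 79.2 in *atpd*, below its 91.0 to 91.5 in WT, and the other members lie higher in *atpd* on every array.

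AT1G01080 encodes an RRM protein of the family whose members bind many plastid messenger RNAs. Its probe had intensities of 1.90, 1.54, 1.80 and 1.79 on *atpd* replicates 1 to 4, against 0.525, 0.560, 0.442 and 0.493 on WT replicates 1 to 4. Each *atpd* value was above each WT value, which held for 59.4% of the 2848 probes, and the spread within a genotype was small beside the gap between them. The means were 1.76 ± 0.153 in *atpd* and 0.505 ± 0.0499 in WT (SD, n = 4 each).

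The percentile of AT1G01080 was 92.6, 89.4, 92.6 and 92.2 on *atpd* replicates 1 to 4, against 75.7, 77.6, 65.4 and 69.0 on WT replicates 1 to 4. The *atpd* arrays lay close together and above all WT arrays, as for 20.9% of the 2848 probes, with an SD of 1.52 points in *atpd* and 5.69 in WT. The mean percentile was higher by 19.8 points in *atpd* (exact permutation test, two-sided, p = 0.0286). After quantile normalisation the RRM protein rose by 1.09 (SE 0.16, limma adjusted p = 0.000496), 2.13-fold. It was the member whose call held in every alternative tried, with an adjusted p of 0.00979 when array pairs formed a random block and 0.0485 when each pair was averaged. The change was 0.86 in arrays 1 and 2 alone and 1.33 in arrays 3 and 4 alone.

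A second probe lists AT1G01080 together with AT1G60000, another chloroplast RRM gene, and cannot be assigned to either. It had intensities of 0.824, 0.863, 1.02 and 0.957 on *atpd* replicates 1 to 4, against 0.514, 0.438, 0.455 and 0.459 on WT replicates 1 to 4. On the normalised scale it differed by 0.0035 (SE 0.13, limma adjusted p = 0.985), and its percentiles overlapped, at 66.5 to 73.8 in *atpd* and 66.4 to 75.1 in WT. The 2 probes that list AT1G01080 therefore disagreed. The log2 ratio of the single-gene probe to the shared probe was 0.94 ± 0.18 in *atpd* and 0.11 ± 0.17 in WT (SD, n = 4 each), a difference of 0.83 with a 95% permutation interval of 0.49 to 1.23 (exact permutation test, two-sided, p = 0.0286). This comparison was added after the values were seen.

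The scaling of the arrays set the size of each change. As deposited, L17 was at -0.11, L5 at 1.77, S10 at 3.27 and the RRM protein at 1.80, and the last 3 passed the test as higher, as did 62.6% of all tested probes. With all arrays moved to 1 common median, L17 was at -1.28, L5 at 0.60, S10 at 2.10 and the RRM protein at 0.63, and all 4 passed, beside 18.7% of tested probes called higher and 32.9% called lower. Cyclic loess put L17 at -0.55, L5 at 0.61, S10 at 2.24 and the RRM protein at 1.17, and all 4 passed, beside 22.6% called higher and 24.7% called lower. The median of all tested probes was at 0.996, -0.17 and 0.030 in these settings, against -0.090 on the quantile-normalised scale. Relative to that median, L17 was lower by 0.58 to 1.11 and the other members were higher by 0.58 to 2.27, so no member changed direction with the scaling.

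**Figure D3:**
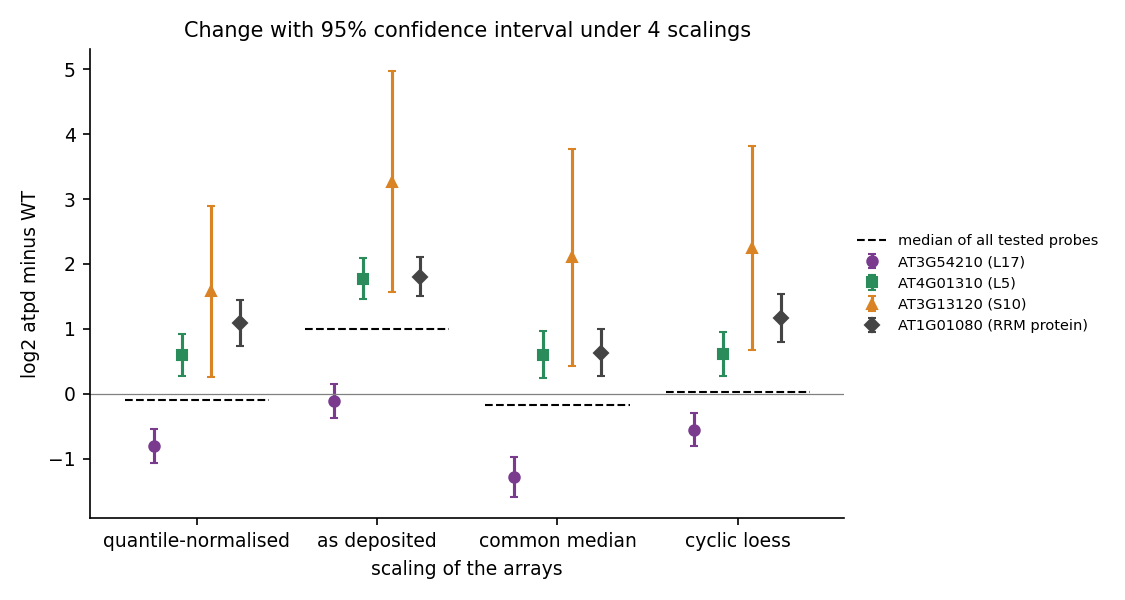
Log2 change (*atpd* minus WT) of the 4 members from limma, with 95% confidence intervals, under 4 scalings of the arrays, and the median change of all 2921 tested probes as a dashed line. AT3G54210 lies below the dashed line and the other members above it in each scaling.

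Whether the members changed unequally was tested from the ratio of their deposited intensities within each array. A factor common to all probes of an array cancels in it. A difference in the shape of the distribution between the genotypes does not cancel, and can move a ratio of a dimmer probe to a brighter one. L5 over L17 differed by 1.88 on the deposited scale, 1.41 after quantile normalisation and 1.16 after cyclic loess. The 6 pairs of members were compared, with Benjamini-Hochberg adjustment over the 6. A ratio at one level says nothing of which gene has more RNA, and only its difference between genotypes is read. With 4 arrays against 4 the smallest possible exact p is 0.0286.

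The 3 ratios over L17 separated the genotypes. The log2 ratio of L5 to L17 was -0.60, -0.60, -0.44 and -0.47 on *atpd* replicates 1 to 4, against -2.37, -2.10, -2.78 and -2.39 on WT replicates 1 to 4. It was thus higher in *atpd* on every array, by 1.88 on average (95% permutation interval 1.50 to 2.34, exact permutation p = 0.0286, adjusted p = 0.0571). The ratio of the RRM protein to L17 was 0.68 ± 0.14 in *atpd* and -1.23 ± 0.26 in WT (SD, n = 4 each), a difference of 1.91 (interval 1.47 to 2.33) with the same exact permutation p and adjusted p. The ratio of the small subunit protein S10 to L17 was -1.81 ± 0.22 in *atpd* and -5.19 ± 1.80 in WT, a difference of 3.38 (interval 1.60 to 6.04), again with the same exact permutation p and adjusted p. With log2(value + 0.1) that difference was 1.62, with the same exact permutation p. The ranges of the genotypes did not overlap in these 3 ratios, and none of them passed 0.05 after adjustment on the deposited scale. How many other pairs of probes separate in this way was not counted. Of the 2848 single probes, 20.9% lay higher and 30.3% lower in *atpd* by percentile without overlap, so such ratios need not be particular to L17. On the quantile-normalised values each of the 3 had the same exact permutation p of 0.0286. The adjusted p there was 0.0429 only because the RRM protein over L5 also reached that smallest p. The lower adjusted p is thus no further evidence on L17.

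The other 3 ratios overlapped between the genotypes. The log2 ratio of the RRM protein to L5 was 1.40, 1.08, 1.16 and 1.19 on *atpd* replicates 1 to 4, against 1.32, 1.11, 1.23 and 1.05 on WT replicates 1 to 4. Its difference was 0.030, with a 95% permutation interval of -0.23 to 0.33 (exact permutation p = 0.743). That interval holds for the deposited scale only, and it takes the 4 arrays of a genotype as independent, so it may be too narrow. The quantile-normalised values put the change of the RRM protein 0.49 above that of L5 (exact permutation test, adjusted p = 0.0429), outside that interval. The ratio of S10 to L5 differed by 1.50 (interval -0.18 to 4.12, exact permutation p = 0.114). The ratio of the RRM protein to S10 differed by -1.47 (interval -3.99 to 0.25, exact permutation p = 0.0571). Both ratios spread more in WT, with an SD of 0.15 in *atpd* and 1.73 in WT for the first and of 0.22 in *atpd* and 1.64 in WT for the other. Without WT replicate 4 the differences were 0.69 and -0.70. With log2(value + 0.1) they were 0.11 and 0.10 (exact permutation p = 0.657 and 0.629), so neither their size nor, for the RRM protein over S10, their sign held on that scale. In arrays 1 and 2 alone the S10 to L5 ratio differed by 0.21 and in arrays 3 and 4 alone by 2.79. Between the subunits, S10 of the small one and L5 of the large one were both higher in *atpd*, and the 2 large subunit proteins moved apart from each other.

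**Figure D4:**
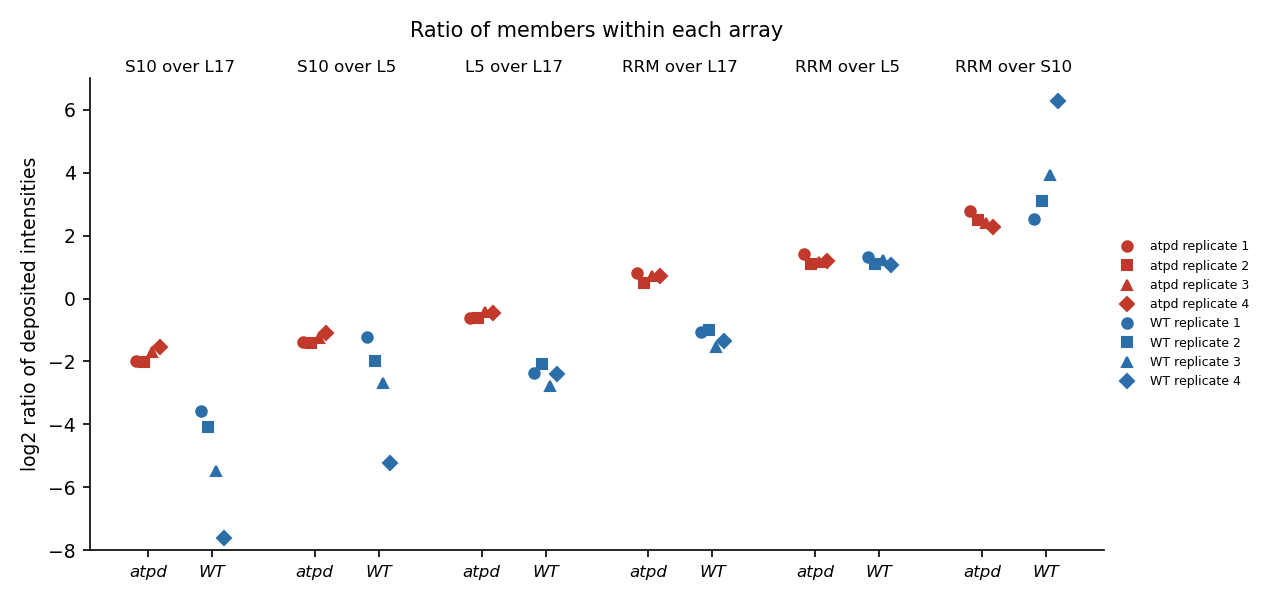
Log2 ratio of the deposited intensities of 2 members on the same array, for the 6 pairs, with the *atpd* arrays left of the WT arrays. The 3 ratios over AT3G54210 (L17) are higher on every *atpd* array than on any WT array, and the ratios among AT4G01310, AT3G13120 and AT1G01080 overlap. The share of other probe pairs that separate in this way was not counted.

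Further genes of the same machinery came from 4 lists, written from general knowledge with earlier results of these data known. The lists held 27 loci for proteins of the plastid large subunit, 14 for the small subunit, 9 for chloroplast RRM proteins and 21 for plastid translation factors and ribosome assembly. Of these 71 loci, 9 had a probe of their own and 7 were tested, the members included. Of the 4 tested large subunit genes 1 rose, 1 fell and 2 did not pass, with a median change of 0.19, against -0.090 for all tested probes, of which 21.4% rose and 30.4% fell. Counts of 1 in 4 each way are near those shares. The 2 genes called were the members L5 and L17, chosen with earlier results known, so the counts are not an independent comparison with those shares. S10 was the only small subunit gene tested. Of the 2 tested RRM genes 1 rose, the member AT1G01080, and 1 did not pass. Outside the members no tested gene of the lists passed after quantile normalisation, beside 51.8% of all tested probes. That count too depends on how members and lists were chosen, and does not show the remaining genes to be unchanged. With the values as deposited AT1G29070 and AT4G09040 passed as higher, as did 62.6% of all tested probes. No gene of the translation factor list was tested. The lists are too short on this array to describe the plastid ribosome as a whole.

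AT5G65220, taken as L29, another large subunit protein near the tunnel exit, had intensities of 3.33, 3.20, 3.45 and 3.25 on *atpd* replicates 1 to 4, against 0.948, 1.02, 7.34 and 6.88 on WT replicates 1 to 4. The *atpd* arrays lay between the 2 pairs of WT arrays. Over all arrays the change was 0.23 (SE 0.55, limma adjusted p = 0.760), but it was 1.31 in arrays 1 and 2 alone (limma adjusted p = 0.00320) and -0.85 in arrays 3 and 4 alone (limma adjusted p = 0.00548). No member showed such a turn of sign between the pairs.

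AT1G29070, taken as L34, had 0.268, 0.172, 0.534 and 0.537 on *atpd* replicates 1 to 4, against 0.0503, 0.178, 0.166 and 0.123 on WT replicates 1 to 4. One *atpd* array overlapped WT, and the change was 0.16 (SE 0.46, limma adjusted p = 0.798). AT4G09040, an RRM gene of the same list as AT1G01080, had 0.360, 0.375, 0.593 and 0.545 on *atpd* replicates 1 to 4, against 0.205, 0.238, 0.0927 and 0.208 on WT replicates 1 to 4. These values did not overlap, but after normalisation the change was 0.099 (SE 0.27, limma adjusted p = 0.785). As deposited, L34 was higher by 1.54 (limma adjusted p = 0.0244) and AT4G09040 by 1.39 (limma adjusted p = 0.00525), beside the median of 0.996 of all tested probes on that scale. AT1G64510, taken as S6, was listed at 0 on all *atpd* arrays and on 3 of 4 WT arrays, and at 0.0795 on WT replicate 4. AT5G46420, taken as the assembly factor RimM, was listed at 0 on all arrays.

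**Figure D5:**
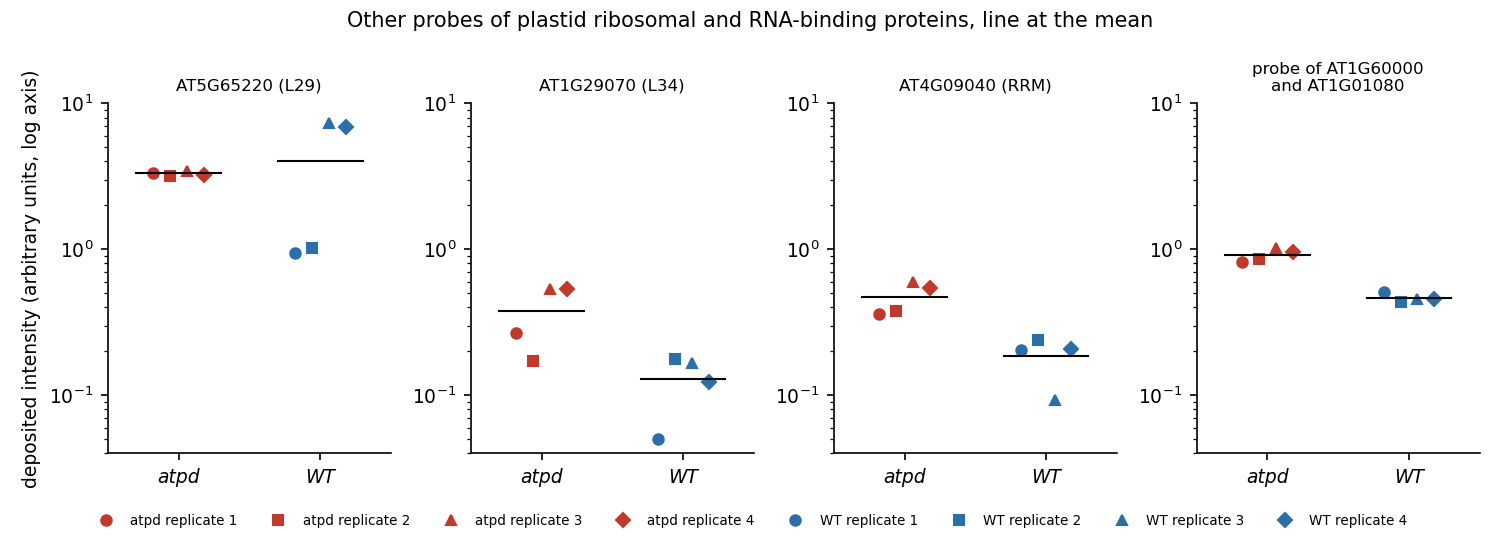
Deposited intensity (arbitrary units, log axis) of 3 further tested genes and of the probe shared by AT1G60000 and AT1G01080, on the *atpd* arrays (left of each panel) and the WT arrays (right), with a line at the mean of 4 arrays. AT5G65220 has its *atpd* arrays between WT replicates 1 and 2 and WT replicates 3 and 4.

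The single-gene probes most like each member were named by Pearson's r of the normalised log2 values over the 8 arrays, among 569 single-gene probes above 0 on all of them. Such an r is set mostly by the difference between the 2 genotypes, and is a description only. The 3 most like L17 were AT3G06570 (r = 0.999), AT5G19540 (r = 0.994) and AT1G70350 (r = 0.993). For L5 they were AT2G39360 (r = 0.978), AT1G35510 (r = 0.975) and AT2G37880 (r = 0.974). For S10 they were AT2G37000 (r = 0.957), AT4G31470 (r = 0.954) and AT1G22660 (r = 0.952), and for the RRM protein AT1G16080 (r = 0.988), AT4G17070 (r = 0.982) and AT4G23890, which is NdhS (r = 0.980). NdhS is a subunit of the chloroplast NADH dehydrogenase-like complex. No other member and no gene of the 4 lists was among these 12.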

How the data were processed

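Total RNA of 4 *atpd* and 4 WT samples was measured on 8 arrays, whose titles give genotype and replicate number. Every title also opens with the same number, whose meaning was not established. The authors deposited 1 linear intensity for each probe on each array. The sources used here do not give the authors' background correction and scaling, and units are therefore arbitrary. Intensities carry no depth, and precision is limited by how many arrays there are. Genes were named through the platform annotation (692 probes with 1 gene, 870 with several, 1877 with none) and the reference gene table of assembly TAIR10.1, which matched 690 of the 692. The files name no build, so no coordinates are given.

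Values of 0 were set to missing. Log2 values were quantile-normalised and fitted with limma 3.58.1 under R 4.3.3, with two-sided p-values adjusted over 2921 probes by Benjamini-Hochberg. Exact permutation tests used SciPy 1.17.1, and 95% permutation intervals hold the shifts not rejected at 0.05. The fit was also run on simulated data, with independent arrays and fewer changed probes than were called here. That run does not bear on the pairing of these arrays. Members and lists were chosen with earlier results of these data known. Genes named are the members, every single-gene probe of the lists, and the 3 probes most like each member.

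*atpd* and WT arrays of the same replicate number deviated together from their genotype means (r = 0.362, 0.277, 0.289 and 0.276 across probes), which meets the bar for pairing of r over 0.1. Arrays of other numbers in the same set of 2 reached 0.168 to 0.274, so a shared set cannot be told apart from a shared number. The main fit and the main permutation tests were nevertheless unpaired, and S10 lost its call with the number as a block. Fits with the number as a block, other scalings and filters, array pairs (duplicateCorrelation, statmod 1.5.0) and each array left out were alternatives.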

Additional observations from a re-analysis of the deposited data

Results flagged for a closer look

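Single arrays standing far from the remaining 3 of a genotype were looked for in each member, on the deposited log2 intensity, the normalised log2 value and the percentile. Of 24 such groups 5 held one, where chance gives about 1 in 20, and all 5 were in *atpd*. The 3 scales of one gene are not independent.

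AT3G54210 (L17) had a deposited log2 intensity of 0.14 on *atpd* replicate 2, against 0.13 on each of the other *atpd* arrays. In intensity this is 1.11 against 1.09, a gap that stands out only because the other 3 values lie so close together.

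AT3G13120 (S10) had a normalised log2 value of -2.24 and a percentile of 19.7 on *atpd* replicate 4, against -2.40 to -2.38 and 16.6 to 16.96 on the other *atpd* arrays. Without this array its change was 1.54, but the adjusted p was 0.0943.

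AT1G01080 (RRM protein) had a normalised log2 value of 0.33 and a percentile of 89.4 on *atpd* replicate 2, against 0.62 to 0.68 and 92.2 to 92.6 on the other *atpd* arrays. Without this array its change was 1.18 (limma adjusted p = 0.00102).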

How the results depend on the processing

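Of the changes of the 4 members under alternatives, 80 kept direction and call, 15 lost the call and none reversed. S10 (AT3G13120) could not be fitted above the 25th percentile of brightness. As deposited L17 was at -0.11 (adjusted p = 0.400). With the means of array pairs the calls of L17 (-0.81), L5 (0.60) and S10 (1.58) were lost, and when array pairs formed a random block those of L5 (0.60) and S10 (1.58); fewer independent units enter both, and called probes numbered 686 and 924, against 1513. With a replicate block, which pairs the arrays by number, S10 (1.58) lost its call at an adjusted p of 0.0547 and no other member did, while the array set as a block kept the call (0.0321); an intensity trend with a robust prior gave S10 1.58 (0.0503). In arrays 1 and 2 alone L5 was at 0.52 (0.0532) and S10 at 0.57 (0.0566). Leaving out each array gave -0.82 to -0.79 for L17, 0.52 to 0.69 for L5, 0.94 to 1.97 for S10, 1.02 to 1.18 for the RRM protein and 1302 to 1498 called probes.

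The percentile difference in arrays 1 and 2 alone and 3 and 4 alone was -12.6 and -14.1 for L17, 7.45 and 16.2 for S10, and 14.4 and 25.2 for the RRM protein. In the same order, log2 ratios differed by 1.84 and 4.92 (S10 over L17), 0.21 and 2.79 (S10 over L5), 1.63 and 2.13 (L5 over L17), 1.66 and 2.16 (RRM protein over L17), and -0.18 and -2.76 (RRM protein over S10). No test within these pairs, with 1 array left out or by sign flips of the 4 numbered pairs could reach 0.05, so they are values only. After quantile normalisation and cyclic loess the ratios over L17 passed, at 2.39 and 2.79 (S10), 1.41 and 1.16 (L5) and 1.90 and 1.72 (RRM protein), as did the RRM protein over L5 at 0.49 and 0.56, and after cyclic loess S10 over L5 at 1.63. With log2(value + 0.1) S10 was at 0.66, S10 over L17 at 1.62, S10 over L5 at 0.11 and the RRM protein over S10 at 0.10, the reverse of its sign otherwise. The RRM protein over L5, near 0, was between -0.035 and 0.077 with 1 array left out, and at -0.012 without WT replicate 4. Leaving out each array gave 2.58 to 3.92 for S10 over L17 and 0.69 to 2.02 for S10 over L5. The causes were not tested.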
